A study of Mus musculus with 6 samples.

Results

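Transcripts of 10 genes of the TGF-beta pathway were followed in LSK cells with and without Asxl2. The genes were the ligands Tgfb1, Tgfb2 and Tgfb3, the receptors Tgfbr1, Tgfbr2 and Tgfbr3, the Smads Smad3, Smad6 and Smad7, and the corepressor gene Skil. They were taken by symbol from the 24063 gene symbols of the count files, and no threshold on a measured value was used. LSK cells are the lineage-negative, Sca-1+ c-Kit+ fraction of bone marrow, which holds haematopoietic stem cells and early progenitors. Asxl2 encodes a chromatin-associated partner of Polycomb-group proteins.

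The comparison set 3 Asxl2-/- libraries against 3 libraries of wild-type control mice, all from bone marrow of C57BL/6 mice that carried Mx1-cre and had received pIpC. pIpC is a double-stranded RNA analogue that switches on the Mx1 promoter through interferon, so Cre was induced in the controls too. The Mx1 promoter also responds to interferon in cells outside the blood system. In the Asxl2-/- mice the floxed allele loses exon 11. The labels give neither age nor sex, and the methods of the study call the 3 samples of each group biological replicates.

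TGF-beta ligands are secreted as latent complexes and, once freed, bring together the type II receptor Tgfbr2 and the type I receptor Tgfbr1, while Tgfbr3 (betaglycan) presents ligand. The activated type I receptor phosphorylates Smad2 and Smad3, which join Smad4 and act on target genes in the nucleus. Smad6 and Smad7 are inhibitory Smads, and SnoN, the product of Skil, and Ski are corepressors that bind Smad complexes. In the haematopoietic system the pathway is best known for restraining the cycling of stem cells.

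Counts assigned to genes totalled 25528540 to 29136012 in the 3 files that give 1 count per transcript (Asxl2-/- replicates 1 and 3 and control replicate 2, called gene-count files) and 53147729 to 55032075 in the 3 files that give 1 count per exon (Asxl2-/- replicate 2 and control replicates 1 and 3, called exon-count files). A spliced read can count once for each exon it touches, so the second kind of total cannot be read as a greater depth. The kind of file entered the test as a covariate. Exon 11 held 0.583% of the Asxl2 exon counts in Asxl2-/- replicate 2 (95% Wilson interval 0.404 to 0.841), against 10.3% (9.45 to 11.2) and 11.98% (11.03 to 13.02) in control replicates 1 and 3, and these intervals cover counting error only. Asxl2-/- replicates 1 and 3 have no exon counts, so the loss of exon 11 could not be checked in them. Over the whole transcript, Asxl2 had a log2 difference of 0.11 (edgeR adjusted p = 0.469). Xist, which is made from the inactive X chromosome, was higher in Asxl2-/- cells (log2 difference 5.73, edgeR adjusted p = 0.0314), and 4 of 4 Y-linked genes on the list, Kdm5d among them, were lower, so genotype and sex cannot be told apart in any comparison given here. Xist had 49540, 57004 and 66689 counts in Asxl2-/- replicates 1, 2 and 3. In control replicates 1, 2 and 3 it had 3194, 590 and 615, so control replicate 1 stood above the other controls. In the sorted cells, the LSK markers Cd34, Kit and Ptprc led a list that summed to between 1178 and 1961 CPM in each library, CPM being counts scaled to a library total of 1e6. The sum does not show Ly6a, the gene of Sca-1, which was uneven. Ly6a had 1483, 3677 and 1633 counts in Asxl2-/- replicates 1, 2 and 3. In control replicates 1, 2 and 3 it had 2109, 7479 and 7002 (log2 difference -1.34, edgeR adjusted p = 0.187).

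Levels were first compared between the genes as CPM per kilobase of transcript, within each kind of file. Tgfb1 was the most abundant by a wide margin. It stood at 163 and 143 CPM per kilobase in Asxl2-/- replicates 1 and 3 and at 128 in control replicate 2, and at 164 in Asxl2-/- replicate 2, 134 in control replicate 1 and 120 in control replicate 3. The ligands Tgfb3 and Tgfb2 were at the other end of the scale. Tgfb3 lay between 0.15 and 0.505 CPM per kilobase over the 6 libraries, and Tgfb2 between 0.0238 and 0.0663.

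**Figure D1:**
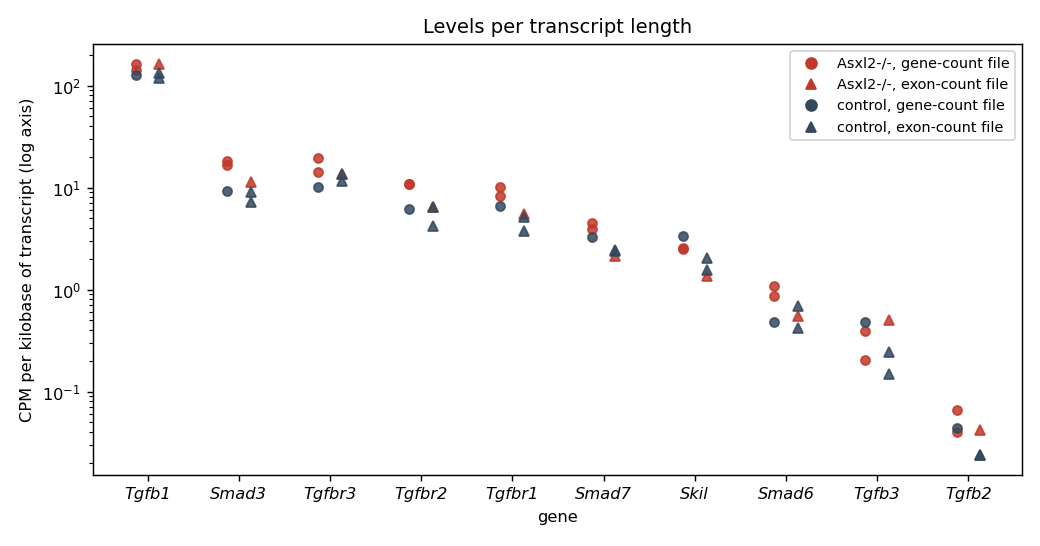
Levels of the 10 genes in CPM per kilobase of transcript on a log axis, 1 point per library, with gene-count files as circles and exon-count files as triangles and Asxl2-/- in red and control in dark blue. Tgfb1 lies above all others in every library (120 to 164), and Tgfb2 lies below all others (at most 0.0663).

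Between these ends, the gene-count files placed Smad3 and Tgfbr3 at means of 14.7 and 14.7 CPM per kilobase, Tgfbr2 at 9.26, Tgfbr1 at 8.35, Smad7 at 3.92, Skil at 2.80 and Smad6 at 0.814. The neighbouring ranges of Smad3 and Tgfbr3, of Tgfbr3 and Tgfbr2, of Tgfbr2 and Tgfbr1, of Smad7 and Skil, and of Smad6 and Tgfb3 overlapped over the 3 libraries, so those neighbours were not ordered beyond their spread. In the exon-count files, Tgfbr3 (mean 13.0) lay above Smad3 (mean 9.23) without overlap, and Smad7 (mean 2.33) above Skil (mean 1.65). The margin between Tgfbr3 and Smad3 was thin, with 11.7 in the lowest library of Tgfbr3 and 11.5 in the highest of Smad3. Reads that touch several exons can count more than once in these files, and Tgfbr3 has 17 exons where Smad3 has 9. The means also pool unlike mixes of genotypes, since most gene-count files are Asxl2-/- and most exon-count files are control. In the gene-count files, Smad3 stood at 18.4 and 16.5 CPM per kilobase in Asxl2-/- replicates 1 and 3 and at 9.18 in control replicate 2. The part of the counting and of the genotype mix in the order of these genes was not tested.

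Promoter sequence from RefSeq (GRCm38.p6, the build that mm10 names) was held for 6 of the 10 genes, as windows of 250 bases before and 50 bases after a transcription start. Those of Smad3 and Tgfbr2, which had the smallest p-values of the genes higher in Asxl2-/- cells, and of Smad6, the only one of the 6 with the full palindromic Smad-binding element, are printed here 5′ to 3′ on the strand of the gene. Capitals mark CAGAC, the short Smad-binding element, on either strand, and the palindrome GTCTAGAC. Neither motif contains the other.
Smad3, chr9:63757945-63758244, minus strand: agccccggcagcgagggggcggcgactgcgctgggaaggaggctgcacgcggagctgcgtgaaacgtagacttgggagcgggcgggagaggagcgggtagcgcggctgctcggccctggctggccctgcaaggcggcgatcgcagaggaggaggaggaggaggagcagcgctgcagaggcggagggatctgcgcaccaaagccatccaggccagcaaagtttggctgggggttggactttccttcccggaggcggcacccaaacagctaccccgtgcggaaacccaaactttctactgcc
Tgfbr2, chr9:116175314-116175613, minus strand: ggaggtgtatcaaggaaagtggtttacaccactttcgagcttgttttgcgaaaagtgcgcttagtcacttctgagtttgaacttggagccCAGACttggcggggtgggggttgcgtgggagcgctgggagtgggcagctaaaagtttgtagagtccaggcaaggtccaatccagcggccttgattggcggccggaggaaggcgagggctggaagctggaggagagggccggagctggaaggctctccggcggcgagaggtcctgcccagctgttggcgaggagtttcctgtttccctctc
Smad6, chr9:64022010-64022309, minus strand: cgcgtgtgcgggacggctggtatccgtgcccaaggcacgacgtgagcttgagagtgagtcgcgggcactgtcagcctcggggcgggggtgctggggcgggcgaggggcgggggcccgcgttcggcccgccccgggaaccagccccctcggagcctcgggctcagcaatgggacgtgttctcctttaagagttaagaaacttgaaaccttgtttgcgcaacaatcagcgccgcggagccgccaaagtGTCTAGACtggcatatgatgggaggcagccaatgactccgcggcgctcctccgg

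The Smad3 window held neither motif, the Tgfbr2 window held CAGAC 1 time, and the Smad6 window held GTCTAGAC 1 time and no CAGAC. Among 32851 promoter windows of the same length, 49.6% held CAGAC on either strand and 0.213% held GTCTAGAC. The GC-rich motif GGCGC was found in 36.9% of all windows, and 2 times in that of Smad6 and 0 times in those of Smad3 and Tgfbr2. The pattern TGNGGT, which covers the binding core of Runx factors, was present in 45.8% of all windows and in 0 of the 7 windows of the 6 genes. A match is a description of letters, and none of these data measured binding.

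Whether these genes differed between the genotypes was asked with edgeR over 14145 genes. Of the 10 genes, 9 had enough counts to be tested, and 0 passed an adjusted p-value of 0.05, where 2.34% of all tested genes did (2.04% higher and 0.304% lower in Asxl2-/- cells). DESeq2 put 2 of them past the threshold (Smad3 higher, adjusted p = 0.000572, and Skil lower, adjusted p = 0.00991), where it called 16.5% of all genes. With limma-voom 1 passed (Smad3, adjusted p = 0.0497), beside 3.04% of all genes. At an unadjusted p-value under 0.05, edgeR had Smad3 and Tgfbr2 higher and Skil lower, 3 of 9, against 27.7% of all genes tested (15% higher, 12.6% lower). The median log2 fold change, Asxl2-/- minus control, was 0.295 over the 9 genes and 0.001 over all genes tested, and 7 of the 9 values were positive.

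The groups did not overlap for 6 of the 9 genes once the file-kind effect had been removed, 5 of them higher in Asxl2-/- libraries (Tgfb1, Tgfbr1, Tgfbr2, Tgfbr3 and Smad3) and 1 lower (Skil), and the same holds for 44.4% of all genes tested (23.6% higher, 20.8% lower). These 6 genes were also separated in the same direction within both kinds of file, as were 48.6% of all genes (25.4% higher, 23.3% lower). Below, counts are given for Asxl2-/- replicates 1, 2 and 3 and then for control replicates 1, 2 and 3, and levels are log2 CPM with TMM scaling and the file-kind effect removed. A log2 difference is the log2 fold change fitted by edgeR, Asxl2-/- minus control.

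Among the ligands, Tgfb1, the isoform made by most blood cells (NM_011577, mm10 chromosome 7, 25687002 to 25704996, 7 exons), had 8691, 18949 and 7812 counts in Asxl2-/- cells and 14887, 7831 and 13353 in control cells. Its levels were 8.36, 8.39 and 8.19 log2 CPM against 8.07, 8.18 and 8.05. The lowest Asxl2-/- library lay just above the highest control library. The group means of 8.31 ± 0.105 and 8.10 ± 0.067 log2 CPM (SD, n = 3 each) gave a log2 difference of 0.21 (SE 0.096, edgeR adjusted p = 0.205), with 0.10 within gene-count files and 0.33 within exon-count files. Although Tgfb1 was deeply counted, a change was not detected over the spread between replicates.

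Tgfb3 (NM_009368, chromosome 12, 86056743 to 86079041, 7 exons) had 34, 94 and 18 counts in Asxl2-/- cells and 44, 48 and 27 in control cells. The libraries were mixed in order, and its log2 difference of 0.26 (SE 0.558, edgeR adjusted p = 0.792) did not exceed its error. The sign differed between the kinds of file, at -0.89 within gene-count files and 1.29 within exon-count files. Tgfb2 (NM_009367, chromosome 1, 186623186 to 186705992, 7 exons) had 8, 11 and 5 counts against 6, 6 and 6 and was not tested, so a difference in this ligand was not detectable at this depth.

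**Figure D2:**
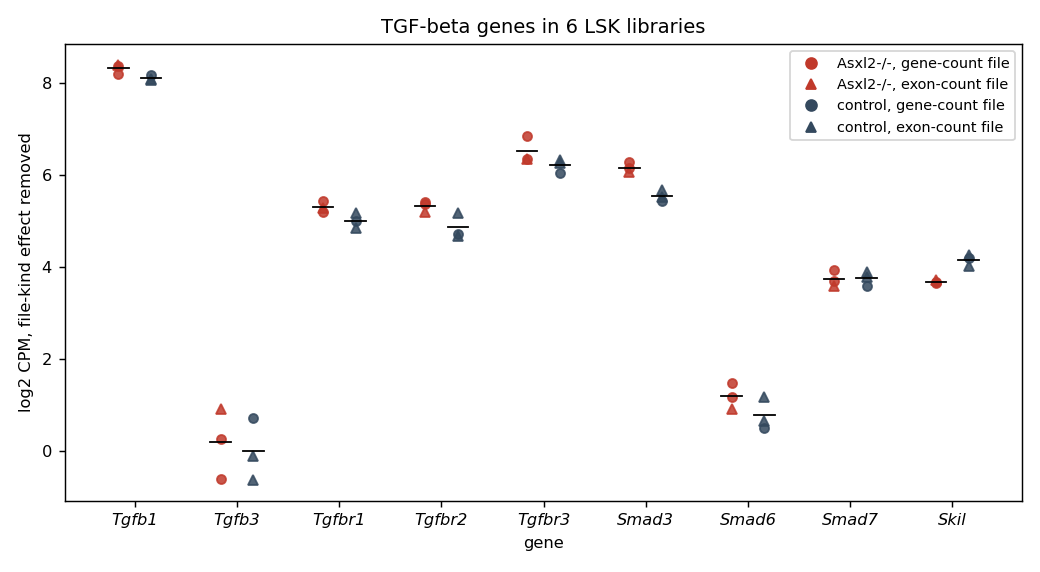
Log2 CPM of the 9 tested genes in each of the 6 libraries after removal of the file-kind effect, with Asxl2-/- in red, control in dark blue, gene-count files as circles, exon-count files as triangles and group means as black lines. The red points lie above the blue ones for Tgfb1, Tgfbr1, Tgfbr2, Tgfbr3 and Smad3, below them for Skil, and among them for Tgfb3, Smad6 and Smad7.

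All 3 receptor transcripts had higher levels in the Asxl2-/- libraries, without a call. For Tgfbr2, the type II receptor that binds ligand first (NM_009371, chromosome 9, 116087695 to 116175363, 8 exons), the counts were 1321, 1702 and 1356 in Asxl2-/- cells and 1644, 859 and 1069 in control cells. The levels were 5.37, 5.18 and 5.40 log2 CPM in Asxl2-/- cells and 5.16, 4.72 and 4.68 in control cells. Control replicate 1 came close to the lowest Asxl2-/- library, whereas the other two controls lay clearly lower. The log2 difference was 0.45 (SE 0.173, edgeR adjusted p = 0.162), with 0.67 within gene-count files and 0.26 within exon-count files. Without control replicate 1 the log2 difference was 0.60 and passed (edgeR adjusted p = 0.0398), and without control replicate 2 it was 0.24 (edgeR adjusted p = 0.625). The latter was the highest adjusted p of the 16 alternative fits without a replicate block, of which 1 passed. The fit without control replicate 1 called 1312 of all genes, against 331 with every library.

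Tgfbr1, the type I receptor kinase that phosphorylates Smad2 and Smad3 (NM_009370, chromosome 4, 47353305 to 47414924, 9 exons), had 1454, 1722 and 1236 counts in Asxl2-/- cells and 1551, 1097 and 1133 in control cells. Its levels of 5.42, 5.28 and 5.18 log2 CPM lay above the control levels of 5.16, 4.99 and 4.85, again with control replicate 1 nearest to the Asxl2-/- libraries. The log2 difference was 0.30 (SE 0.129, edgeR adjusted p = 0.200), and both kinds of file gave a similar value (0.32 and 0.28).

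Tgfbr3, the co-receptor betaglycan (NM_011578, chromosome 5, 107106570 to 107289595, 17 exons), had 2193, 4546 and 3122 counts in Asxl2-/- cells and 4335, 1804 and 3783 in control cells. The levels were 6.35, 6.35 and 6.85 log2 CPM in Asxl2-/- cells and 6.31, 6.04 and 6.25 in control cells, so that Asxl2-/- replicate 3 stood apart and the other two lay close to the controls. The log2 difference of 0.32 (SE 0.182, edgeR adjusted p = 0.288) became 0.14 without Asxl2-/- replicate 3, 0.07 without control replicate 2 and 0.58 without Asxl2-/- replicate 2, and it was 0.56 within gene-count files and 0.07 within exon-count files.

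Smad3, the receptor-regulated Smad that carries the signal to the nucleus (NM_016769, chromosome 9, 63646767 to 63757994, 9 exons), showed the largest fold change of the 9 tested genes. It had 2393, 3211 and 2203 counts in Asxl2-/- cells and 2426, 1362 and 1965 in control cells. The levels were 6.28, 6.05 and 6.15 log2 CPM in Asxl2-/- cells and 5.68, 5.43 and 5.51 in control cells, and the gap between the groups exceeded the range within either of them. The group means were 6.16 ± 0.113 and 5.54 ± 0.125 log2 CPM (SD, n = 3 each), a log2 difference of 0.62 (SE 0.114). Its edgeR adjusted p of 0.0532 just missed the threshold.

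The Smad3 difference was 0.78 on the log2 scale within gene-count files and 0.46 within exon-count files, and it was positive in 18 of 18 alternatives without a replicate block, from 0.46 to 0.78. In 4 of 16 such fits it passed, and the adjusted p ran from 0.000572 (DESeq2) to 0.205. Without Asxl2-/- replicate 2 (edgeR adjusted p = 0.0411) or without control replicate 1 (edgeR adjusted p = 0.0398) Smad3 was called, in fits that called 659 and 1312 of all genes, whereas the highest value, 0.205, came without control replicate 2, where 124 were called.

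The inhibitory Smads gave no such separation. Smad6 (NM_008542, chromosome 9, 63953076 to 64022059, 4 exons) lies on chromosome 9 as Smad3 does and had 83, 91 and 67 counts in Asxl2-/- cells and 108, 42 and 67 in control cells. Its libraries overlapped (0.91 to 1.49 log2 CPM against 0.50 to 1.18), with a log2 difference of 0.40 (SE 0.349, edgeR adjusted p = 0.480) that was 0.83 within gene-count files and -0.002 within exon-count files. Smad7, an early target of the pathway that blocks the type I receptor (NM_001042660, chromosome 18, 75367365 to 75395934, 4 exons), had 447, 518 and 528 counts against 580, 423 and 570. Its group means were nearly equal at 3.74 ± 0.179 and 3.75 ± 0.147 log2 CPM (SD, n = 3 each), and the log2 difference was -0.01 (SE 0.165, edgeR adjusted p = 0.973), with opposite signs in the 2 kinds of file (0.23 by gene and -0.25 by exon).

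Skil, which encodes the corepressor SnoN (NM_011386, chromosome 3, 31095058 to 31122923, 7 exons), was the only one of the 9 tested genes whose levels were lower in all Asxl2-/- libraries than in any control. The counts were 464, 529 and 464 in Asxl2-/- cells and 763, 685 and 586 in control cells. The 3 Asxl2-/- libraries lay close together at 3.66, 3.71 and 3.65 log2 CPM, and the controls stood above them at 4.26, 4.19 and 4.02. The log2 difference was -0.49 (SE 0.123, edgeR adjusted p = 0.0847), with -0.53 within gene-count files and -0.44 within exon-count files. It was negative in 18 of 18 alternatives without a replicate block and passed in 1 of 16 such fits, with adjusted p from 0.00991 (DESeq2) to 0.646, the value with no term for the file kind, where the log2 difference was -0.25.

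**Figure D3:**
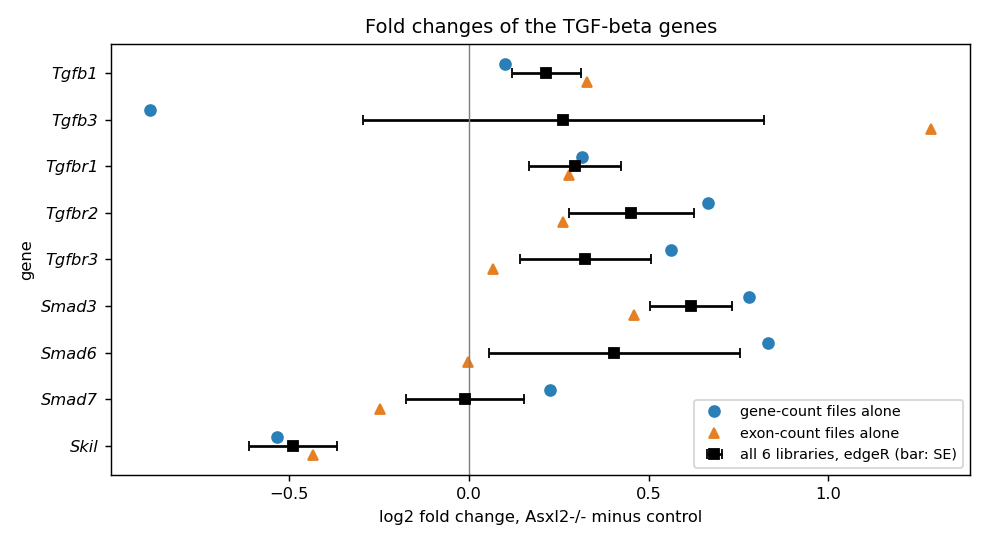
Log2 fold changes, Asxl2-/- minus control, of the 9 tested genes, with black squares and bars for the edgeR estimate over 6 libraries and its SE, blue circles for the gene-count files alone and orange triangles for the exon-count files alone. Smad3 (0.62) and Skil (-0.49) have the smallest SE for their size and keep their sign in both kinds of file. The values of Tgfb3, Smad6 and Smad7 from the 2 kinds of file lie on opposite sides of 0, that of Smad6 from the exon-count files only just (-0.002).

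Exon counts allowed a look along each transcript in Asxl2-/- replicate 2 and control replicates 1 and 3, as a description of 3 libraries. For Smad3, the Asxl2-/- library lay above both controls in 9 of 9 exons with at least 10 counts in every library, and for Tgfb1 in 7 of 7. The Smad3 exon with the 3′ end, the longest at 3619 bases, had 35.3 CPM in Asxl2-/- replicate 2 and 26.8 and 23.3 CPM in control replicates 1 and 3. For Skil, the Asxl2-/- library lay below both controls in 5 of 6 such exons, its last exon having 4.77 CPM against 7.502 and 5.91. These differences therefore ran along the transcripts and were not confined to 1 exon in these 3 libraries.

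The receptors were less even. The Asxl2-/- library lay above both controls in 5 of 8 exons of Tgfbr2, 7 of 9 of Tgfbr1 and 12 of 17 of Tgfbr3. In Tgfbr2, control replicate 1 exceeded control replicate 3 in 8 of 8 exons, so the spread between those controls ran along the whole transcript. Of 4 Smad7 exons, 4 were below both controls in Asxl2-/- replicate 2, although gene-count files gave the opposite sign. Tgfbr2 and Skil alone among the 10 genes had more than 1 RefSeq transcript in the files. A Tgfbr2 exon of 75 bases (116158271 to 116158345), present in NM_009371 and absent from NM_029575, held 32 counts in Asxl2-/- replicate 2 and 26 and 14 in control replicates 1 and 3.

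**Figure D4:**
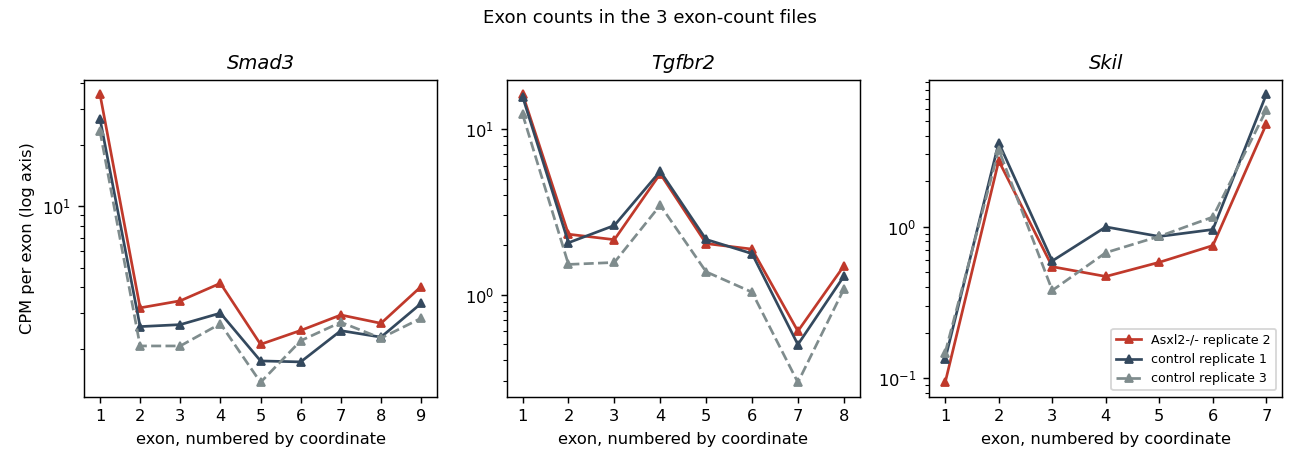
CPM in each exon, on a log axis, against the exon number by genome coordinate for Smad3, Tgfbr2 and Skil in the 3 exon-count files, with Asxl2-/- replicate 2 in red and the control replicates in dark blue and dashed grey. The red line runs above both controls at all 9 Smad3 exons, below both at most Skil exons, and close to control replicate 1 along Tgfbr2.

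The genes around these components were followed in a list of 55 other genes of the pathway, of which 42 were tested. Of these, 5 passed the edgeR threshold, 4 higher and 1 lower in Asxl2-/- cells, beside 2.34% of all genes tested. This list, and that of target genes given below, were chosen with earlier results of these data known. Their counts beside that share are therefore a description only. The median log2 fold change over the 42 genes was 0.256, and 31 of 42 were positive. The called genes were spread over the latent complex (Ltbp3 and Ltbp1), receptors (Bmpr2), corepressors (Ski) and related ligands (Inha). Inha is counted among them as a description only, since it met the count filter only through the Asxl2-/- libraries.

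In the latent complex, the 2 called genes moved in opposite directions. Ltbp3, which encodes a matrix protein that binds and stores latent TGF-beta, had 2184, 4556 and 2064 counts in Asxl2-/- cells and 1436, 402 and 975 in control cells, a log2 difference of 2.12 (SE 0.187, edgeR adjusted p = 0.0139). Ltbp1, a gene of the same family, had 19, 47 and 21 counts against 274, 70 and 230, a log2 difference of -2.16 (SE 0.283, edgeR adjusted p = 0.0279). For both genes, every Asxl2-/- library lay on the same side of every control. Of 11 listed genes of this role 8 were tested, and the other 6, among them Furin and Thbs1, did not pass.

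Among receptors and co-receptors, 9 of 11 were tested and Bmpr2, the type II receptor of bone morphogenetic proteins, rose. It had 1416, 1608 and 1314 counts in Asxl2-/- cells and 1050, 704 and 852 in control cells, a log2 difference of 0.82 (SE 0.12, edgeR adjusted p = 0.0334). The activin type I receptor gene Acvr1b was next in order of p, at 0.89 (SE 0.243, edgeR adjusted p = 0.0956), and was not called. Of the other Smads, 4 of 5 were tested. Of these, 0 passed and 0 had an unadjusted edgeR p under 0.05, beside 2.34% and 27.7% of all genes tested. Smad2, which the type I receptor phosphorylates as it does Smad3, was at -0.02 (SE 0.077, edgeR adjusted p = 0.902). Smad4, the shared partner, was at 0.24 (SE 0.101, edgeR adjusted p = 0.190), and Smad5, of the bone morphogenetic protein branch, was at 0.26 (SE 0.127, edgeR adjusted p = 0.232).

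Of 17 intracellular regulators tested, 1 passed. Ski, the corepressor of the same family as SnoN, had 2083, 3144 and 2119 counts in Asxl2-/- cells and 2225, 1198 and 1539 in control cells, a log2 difference of 0.74 (SE 0.131, edgeR adjusted p = 0.0499). Its sign was the opposite of that of Skil. Smurf2, a ubiquitin ligase that acts on Smads and receptors, had levels of 5.80, 5.77 and 5.74 log2 CPM in Asxl2-/- cells and 5.36, 5.35 and 5.35 in control cells, a log2 difference of 0.42 (SE 0.079, edgeR adjusted p = 0.0557) that missed the threshold.

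Of 11 related ligands only 4 were tested. Inha, the alpha subunit of inhibin, had 60, 56 and 31 counts in Asxl2-/- cells and 4, 0 and 1 in control cells. It met the count filter through the Asxl2-/- libraries alone, so its call (edgeR adjusted p = 0.0435) is given as a description only. With so few control counts, its fitted log2 difference of 5.04 depends on the prior count. Gdf11 had 50, 44 and 30 counts against 17, 6 and 7 (log2 difference 2.20, SE 0.532, edgeR adjusted p = 0.0783). Gdf11 too met the count filter only through the Asxl2-/- libraries, so these values are given as a description only. Among 16 genes listed as targets of the pathway, 12 were tested and 1 passed, beside 2.34% of all genes tested. Cdkn1c, which encodes the cyclin-dependent kinase inhibitor p57, had 276, 276 and 185 counts in Asxl2-/- cells and 67, 17 and 38 in control cells, a log2 difference of 2.96 (SE 0.442, edgeR adjusted p = 0.0345). Id2, an inhibitor of helix-loop-helix factors, was at -1.37 (SE 0.422, edgeR adjusted p = 0.113). The Id2 value was uneven, at -2.41 within gene-count files and -0.34 within exon-count files. The median over the 12 target genes was 0.169.

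All 6 of these calls, Ltbp3, Ltbp1, Bmpr2, Ski, Inha and Cdkn1c, were lost when control replicate 3 was left out (edgeR adjusted p from 0.0995 to 0.191) and when Asxl2-/- replicate 1 was left out (0.0591 to 0.172), fits that called 9 and 16 of all genes. The values of Inha in this paragraph are a description only, since it met the count filter through the Asxl2-/- libraries alone. The log2 differences of the 6 genes are given in the order named. Without control replicate 3 these log2 differences were 2.07, -2.14, 0.81, 0.675, 4.84 and 2.91, close to those from 6 libraries. Leaving out Asxl2-/- replicate 3 ended 5 of the calls, with only Ltbp3 kept (the 5 from 0.0585 to 0.113), leaving out control replicate 2 ended those of Bmpr2, Ski, Inha and Cdkn1c (0.0613 to 0.189), and leaving out Asxl2-/- replicate 2 ended that of Ski (0.0613). Over the alternative fits without a replicate block, the call was kept in 14 of 16 for Ltbp3, 11 of 16 for Ltbp1, 10 of 16 for Cdkn1c, 10 of 16 for Bmpr2, 7 of 16 for Ski and 10 of 15 for Inha.

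**Figure D5:**
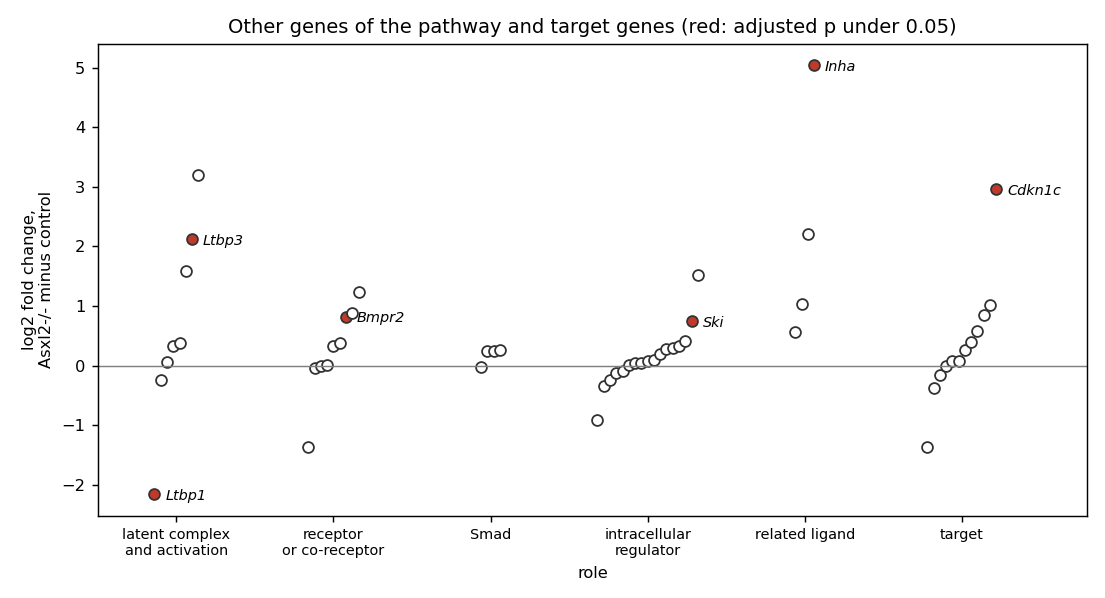
Log2 fold changes, Asxl2-/- minus control, of 42 other pathway genes and 12 target genes by role, 1 circle per gene, filled red where the edgeR adjusted p was under 0.05. Red circles are Ltbp3, Bmpr2, Ski, Inha and Cdkn1c above 0 and Ltbp1 below 0, and no receptor-regulated or common Smad is red.

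Marker genes of several cell types also differed between these libraries. Over all genes tested, 2.04% were called higher and 15% were higher at an unadjusted edgeR p under 0.05. Of 10 B-lymphoid markers (led by Cd79b, Rag1 and Igll1), 8 passed the edgeR threshold as higher in Asxl2-/- cells, and their summed level was 183 to 251 CPM in Asxl2-/- and 38.9 to 62.0 in control libraries. Of 11 tested megakaryocyte and platelet markers (led by Itga2b, Vwf and Pf4) 4 were higher, with sums of 378 to 838 against 185 to 375, while Gp6 was at 0 in 4 libraries. Of 10 stem-cell markers (led by Gata2, Meis1 and Hlf) 2 were higher, with sums of 529 to 757 against 289 to 462. Of 11 tested endothelial markers (led by Pecam1, Egfl7 and Tie1) 0 passed and 5 had an unadjusted edgeR p under 0.05, with sums of 222 to 298 against 161 to 236 and Sox17 at no more than 1 count in any library. Of 10 stromal markers (led by Col1a2, Col1a1 and Pdgfrb) 0 passed and 0 had an unadjusted edgeR p under 0.05, with sums of 143 to 357 against 47.8 to 202. The part of these cell types in the values of Smad3, Skil, the receptors and Tgfb1 was not tested, and in bulk samples fewer cells of a type and less RNA per cell cannot be told apart.

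The genes whose levels followed these patterns most closely were listed for the 3 genes with the smallest p-values, by Pearson's r over the 6 libraries and as a description only. Those nearest to Smad3 were Art5, Vmac and Dapp1 (r from 0.9995 to 0.9998), those nearest to Tgfbr2 were Vgll4, Map3k2 and Cbx7 (0.9985 to 0.9996), and those nearest to Skil were Cdk2ap1, Gm19557 and 9230105E05Rik (0.9918 to 0.9969). The number of genes with r of at least 0.95 was 1243 for Smad3, 605 for Tgfbr2 and 74 for Skil, so a close match over 6 libraries that share 2 groups was common for Smad3.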

How the data were processed

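RNA from LSK cells of 3 Asxl2-/- and 3 control mice was sequenced by the authors as poly(A)-selected, unstranded libraries. The deposited files hold raw read counts on mm10 with RefSeq transcripts, per transcript in 3 libraries and per exon in the other 3. The submitters' processing notes list STAR, featureCounts and DESeq2 without roles or versions.

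Each symbol was represented by its transcript of greatest summed exon length, and exon counts were summed over it. Counts were tested with edgeR 4.0.16 (R 4.3.3) by the quasi-likelihood test, with TMM scaling, the filterByExpr filter, file kind plus group as design (3 residual degrees of freedom) and Benjamini-Hochberg adjustment over all 14145 genes tested. P-values are two-sided, the threshold was 0.05, and SEs were derived from the fold change and F statistic. Levels are log2 CPM with prior count 2 after removal of the fitted file-kind effect, so their SDs are somewhat too small. The script was tested on simulated counts.

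The genes and lists were chosen with earlier results of these data known. The text names all 10 genes. Of the other pathway and target genes it names every gene past the threshold and the 2 with the smallest p in each role. It names the 3 most abundant markers of each marker list reported (a list of lineage markers is not reported here) and the 3 genes nearest in pattern to the 3 genes with the smallest p. Ly6a, Furin, Thbs1, Smad2, Inhba, Bmpr1a, Ltbp4, Nrros, Gp6 and Sox17 were named after their values were seen. Alternatives were DESeq2 1.42.0, limma-voom (limma 3.58.1), other scalings and filters, other covariates, other transcript or exon choices, and leaving out each library.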

Additional observations from a re-analysis of the deposited data

How the results depend on the processing

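Over the alternatives run, Tgfb1, Tgfbr1, Tgfbr2, Tgfbr3, Smad3 and Skil kept their direction in 20 of 20. The direction changed for 3 genes, and the cause was not tested: Tgfb3 was at -0.855 without Asxl2-/- replicate 2, -0.057 without control replicate 3 and -0.888 in the gene-count files (-0.855 to 1.315 with 1 library left out). Smad6 was at -0.029 without control replicate 2 and -0.002 in the exon-count files (-0.029 to 0.862 with 1 library left out). Smad7 was at 0.088 with library size only, 0.22 with no file kind term, 0.19 with the replicate block without file kind, 0.23 without Asxl2-/- replicate 2, 0.046 without control replicate 3 and 0.225 in the gene-count files (-0.246 to 0.23 with 1 library left out). Of the 10 genes, 0 passed with edgeR as reported, 2 with DESeq2, 1 with limma-voom and 0 to 2 when 1 library was left out (1 without Asxl2-/- replicate 2, and 2 without control replicate 1). Over all genes the count of 331 became 2329 with DESeq2 and 161 with library size only, and ran from 9 without control replicate 3 to 1312 without control replicate 1. Other pathway genes past the threshold numbered 13 with DESeq2, 1 with library size only, 3 with at least 10 counts in every library, and 0 to 10 with 1 library left out. Target genes numbered 0 with library size only, 0 with the longest exon in the exon-count files, and 0 to 3 with 1 library left out. Deviations of same-numbered samples correlated at 0.294, -0.008 and -0.003, and not every sample correlated best with its own number. The file-kind effect was still in these deviations, and same-numbered samples came from different kinds of file. These correlations therefore cannot decide whether the replicate numbers pair the samples. Under the replicate block with file kind, 5 of the 10 genes (4 higher, 1 lower), 24 other pathway genes, 5 target genes and 5179 genes in all passed. Tgfb2 had at most 11 counts in a library and was not tested.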

Other observations

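Other genes of the pathway, not called and not described so far, were uneven between single libraries. Inhba, a subunit of activin A, had 76 counts in Asxl2-/- replicate 2 and 3 and 0 in Asxl2-/- replicates 1 and 3, against 1, 1 and 2 in control replicates 1, 2 and 3, and was not tested. Bmpr1a, a type I receptor of bone morphogenetic proteins, had 35, 6 and 13 counts in Asxl2-/- cells and 47, 3 and 21 in control cells, with a log2 fold change of -0.01 (edgeR adjusted p = 0.997), and the highest count of each group lay in its replicate 1. The summed stromal markers were also highest in replicate 1 of each group, at 357 CPM in Asxl2-/- and 202 in control cells. Ltbp4, of the same family as Ltbp1 and Ltbp3, had a log2 fold change of 3.20 that did not pass (edgeR adjusted p = 0.0655). Nrros, which tethers latent TGF-beta on myeloid cells, was at 0.06 (edgeR adjusted p = 0.789).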
